A study of Mus musculus with 10 samples.

Results

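The constant regions of mouse antibodies were read by 5 of the 24048 probes on an expression array, in the livers of 10 female mice. They are the probes whose identifiers begin with IGKC, IGHG2C, IGHA and IGHM, and the probe scl016019.1_4-S, which was matched to Ighm through the gene number inside its identifier. IGKC codes for the kappa light chain, IGHG2C, IGHA and IGHM for the heavy chains of IgG2c, IgA and IgM, and Ighm is the same gene as IGHM. These probes were chosen by name, after their intensities and genotype differences in the same arrays had been seen, so those differences are given as a description.

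An antibody is built from heavy and light chains, each with a variable region that binds the antigen and a constant region that sets the class. B cells first make the mu heavy chain of IgM and can later switch to gamma or alpha, and plasma cells, their secreting descendants, hold very large amounts of these messages. Liver cells other than B lineage cells do not rearrange these genes, so antibody messages in whole liver RNA are read as signal of B and plasma cells in the tissue or in the blood it holds.

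The study compared 5 mice heterozygous for Gyk, the X-linked gene of glycerol kinase, with 5 wildtype C57Bl/6J mice. All were females killed at 23 weeks of age, and all ate chow with 4% fat up to week 11 and with 6% fat afterwards. The altered Gyk allele is not described in the sources used here, and a heterozygous female is a mosaic of cells that use either X chromosome. The leading number of the sample title was 1 in heterozygous replicates 1 to 3 and wildtype replicate 1, 2 in heterozygous replicates 4 and 5 and wildtype replicate 2, and 7 in wildtype replicates 3 to 5. What this number stands for is not given in the labels, and where it is 7 it cannot be told apart from the wildtype group.

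Gyk itself averaged 319.7 ± 90.1 (SD, n = 5) in intensity for the heterozygotes against 559 ± 209 (SD, n = 5) for wildtype. Its log2 change of -0.65 did not pass (limma adjusted p = 0.332). The groups did not overlap in normalized log2 values, but in intensity heterozygous replicate 5 (433) lay above wildtype replicate 4 (416). A second probe matched to this gene was detected on 0 arrays. The arrays of heterozygous replicate 1 and wildtype replicate 1 stood apart. They correlated at r = 0.991 with each other across the 10225 probes detected on at least 5 arrays, and at 0.934 to 0.967 with the other 8 arrays, so results are given with and without them. The hepatocyte genes Apoa1 and Serpina1a, which mark the tissue as liver, were bright on all arrays, with a summed intensity of 50855 to 70587. A level is an intensity in the units of the deposited table, and log2 values are those after quantile normalization.

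The kappa light chain differed 4.96-fold between the highest and the lowest liver. The heterozygous livers, replicates 1 to 5 in turn, read 667, 586, 575, 1163 and 557 on IGKC. The wildtype livers, likewise in turn, read 483, 1188, 1656, 1269 and 2399.8. The 5 brighter livers were wildtype replicates 2 to 5 and heterozygous replicate 4, and no liver lay between 667 and 1163. The 4 highest intensities were wildtype, and the groups overlapped through wildtype replicate 1, the dimmest liver of all. Within each array 85.0% to 95.6% of probes were dimmer than IGKC. Its SD over the 10 livers was 0.73 on the log2 scale, larger than that of 97.7% of the 10225 detected probes, whose median SD was 0.19.

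**Figure D1:**
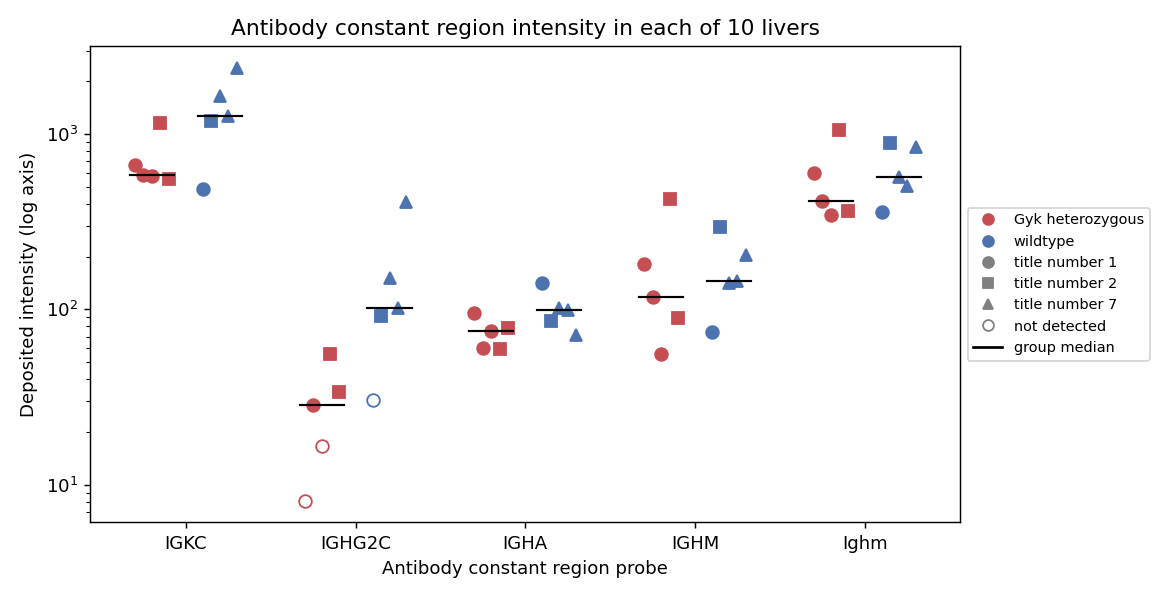
Deposited intensity (log axis) of the 5 antibody constant region probes in each liver, with red points for Gyk heterozygous and blue for wildtype, point shapes for the leading title number, open points where the probe was not detected, and lines at the group medians (n = 5). For IGKC and IGHG2C the 3 wildtype livers of title number 7 lie above every heterozygous liver, while the groups overlap for all 5 probes.

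IgM was measured by 2 probes, and they ordered the livers almost alike. On IGHM the heterozygous livers in turn read 182, 117.5, 55.6, 426 and 88.9, and the wildtype livers 74.4, 296, 141, 144 and 204. On Ighm the former read 604, 418, 347, 1062 and 366, and the latter 359.8, 894, 573, 508.5 and 849. Heterozygous replicate 4 was the highest liver on both probes and wildtype replicate 2 the second, one from each genotype. The SD over 10 livers was 0.57 for IGHM and 0.52 for Ighm on the log2 scale, larger than that of 95.4% and 94.4% of the detected probes.

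Across the 10 livers the 2 Ighm probes correlated at Pearson r = 0.972 (permutation p = 1e-05, the smallest that 100000 resamples can give) and Spearman rho = 0.964 (permutation p = 6e-05). Of 45 pairs of livers 43 were ordered alike by both. Without the arrays that stood apart r was 0.967 (n = 8, exact permutation p = 4.96e-05). Without heterozygous replicate 4 and wildtype replicate 2, the livers farthest from the median of IGHM, it was 0.949 (n = 8, exact permutation p = 0.000149). With the mean of each group subtracted r was 0.980, and with the mean of each title number subtracted it was 0.973.

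On the normalized log2 scale the difference between the 2 Ighm probes varied little between livers. A constant was added to every intensity before log2, which narrows the spread of a dim probe such as IGHM more than that of Ighm. In intensity the 2 probes did not change in equal proportion. The highest of the 10 livers was 7.67-fold the lowest on IGHM and 3.06-fold on Ighm. The values that follow hold for the log2 scale with the constant. IGHM minus Ighm ran from -1.60 to -1.18 on the log2 scale, with a mean of -1.39 ± 0.14 (SD, n = 10), and log2 IGHM rose by 1.06 for each unit of log2 Ighm. The mean difference was -1.33 ± 0.13 (SD, n = 5) for the heterozygotes against -1.45 ± 0.13 (SD, n = 5) for wildtype, and the ranges overlapped. Probes of different sequence have different brightness, so the offset says nothing of the amount of RNA. A second kappa probe, scl0016071.1_62-S, matched to Igkc by its number, gave a like picture for the light chain. The heterozygous livers in turn read 1006, 856, 949, 1935.5 and 959 on it, and the wildtype livers 861, 1859.7, 2513, 1993.5 and 3827. It correlated with IGKC at r = 0.995 over 10 livers (permutation p = 1e-05, the smallest possible) and at 0.981 with the mean of each title number subtracted.

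**Figure D2:**
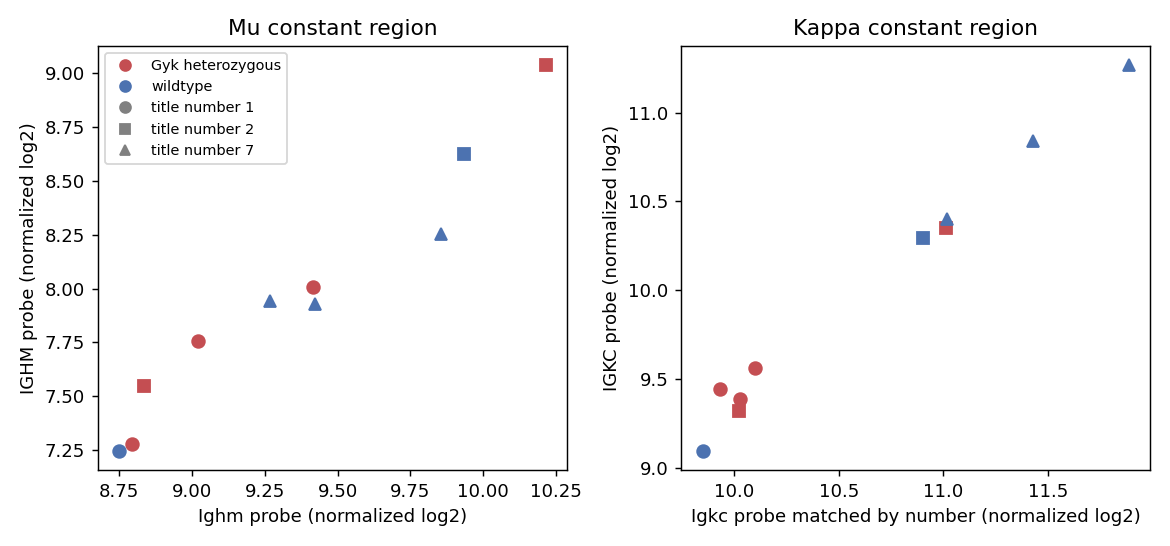
Normalized log2 values of 2 probes for the mu constant region (left) and 2 for the kappa constant region (right), with 1 point per liver, red for Gyk heterozygous, blue for wildtype, and shapes for the leading title number. The points of both genotypes lie along 1 line in each panel (r = 0.972 and 0.995, n = 10).

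IgG2c, the gamma class that C57BL/6 mice carry in place of IgG2a, had the widest range. On IGHG2C the heterozygous livers in turn read 8.1, 28.6, 16.7, 55.8 and 33.6. The wildtype livers read 30.5, 92.2, 150.2, 102 and 410. It was detected in 3 of 5 heterozygous and 4 of 5 wildtype livers, at thresholds of 22.0 to 41.2 per array. The low end of its range was thus below detection. The SD of IGHG2C over the 10 livers was 0.70 on the log2 scale, against 0.73 for IGKC. The 4 highest livers were wildtype replicates 5, 3, 4 and 2, and wildtype replicate 1 was below heterozygous replicates 4 and 5. The gamma genes are near-identical to each other in places, and how well the probe tells them apart is not known here.

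A probe matched to Ighg3, the gamma 3 heavy chain, followed the same extreme liver. The Ighg3 probe (scl00380795.1_179-S) was detected on 6 arrays, with readings of 1.7, 11.5, 21.4, 48.6 and 83.9 for the heterozygotes in turn and 89.5, 17.8, 151.7, 41.5 and 363.5 for wildtype. Wildtype replicates 5 and 3 were its highest livers, as for IGHG2C, while wildtype replicate 2 was low here.

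IgA, the class that the polymeric immunoglobulin receptor carries across epithelia and into bile, varied least. On IGHA the heterozygous livers in turn read 95.4, 60.4, 75.6, 59.7 and 78.3. The wildtype livers read 142, 85.4, 102, 99.3 and 71.7. The highest liver was wildtype replicate 1, the lowest on IGKC, and heterozygous replicate 4, the highest on IGHM, was the lowest here. The SD of IGHA over 10 livers was 0.14 on the log2 scale, and only 27.3% of detected probes had a smaller one. IGHA is a dim probe, so the constant added before log2 narrows this spread. As an intensity its highest liver was 2.38-fold its lowest, against 3.06-fold for Ighm. Pigr, the gene of that receptor, averaged 14363 ± 1337 (SD, n = 5) for the heterozygotes against 14353 ± 998 (SD, n = 5) for wildtype, with a log2 change of 0.09 (SE 0.08).

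**Figure D3:**
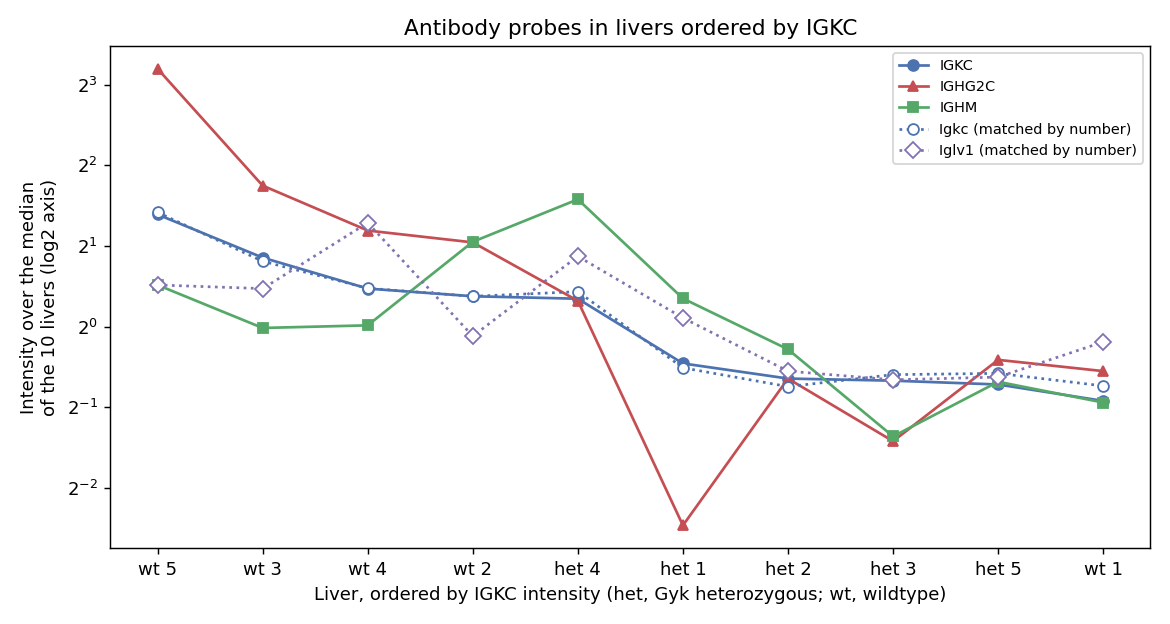
Intensity divided by the median of the 10 livers (log2 axis) for 3 of the probes and for the probes matched to Igkc and Iglv1, with the livers ordered by IGKC and lines only to guide the eye. IGKC, Igkc and IGHG2C are highest in wildtype replicate 5, IGHM in heterozygous replicate 4, and IGHG2C was not detected in heterozygous replicates 1 and 3 or wildtype replicate 1.

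Other antibody probes were mostly dim. Besides the 5 described, 204 probes belonged to other immunoglobulin segments or to Jchain, which joins the units of IgM and IgA. Of 195 probes for variable segments 24, or 12.3%, were detected on at least 5 arrays, against 42.5% of all probes. The highest intensity of these 24 on any array was 90.3. The 195 are the probes whose identifiers name a variable segment, and probes matched by number, such as those of Iglv1, are not among them. Of 32 probes for variable segments of T cell receptors 1 was detected. IGKV4-51, a kappa variable segment, was detected on all 10 arrays, at 54.3 ± 7.81 (SD, n = 5) for the heterozygotes against 71.5 ± 5.88 (SD, n = 5) for wildtype. Of the 24 it was the 1 with r above 0.9 to IGKC.

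Of the constant regions of lambda, the other light chain, IGLC2 was detected on 9 arrays, IGLC3 on 8 and IGLC1 on 3. IGLC2 averaged 55.7 ± 16.1 (SD, n = 5) for the heterozygotes against 71.1 ± 21.5 (SD, n = 5) for wildtype, and IGLC3 lay at 27.8 to 65.8. IGLC2 and IGLC3 are near-identical genes, and which of them each probe reads is uncertain. A probe matched to Iglv1, a lambda variable segment, read 172, 109, 101, 292 and 103.5 in the heterozygous livers in turn and 140.0, 147, 221, 389.7 and 228 in the wildtype ones. The delta heavy chain probe IGHD was detected on 2 arrays and the Jchain probe on 0.

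Few markers of B and plasma cells could be read. Of 22 B cell genes listed, 4 had a named probe and 1 was detected: Cd74, the invariant chain of MHC class II, which macrophages and dendritic cells also make. Ebf1, a transcription factor of early B cells, was detected on 3 arrays, and the B cell receptors Fcer2a and Tnfrsf13b on 0. Cd74 was highest in wildtype replicate 2 (1569), heterozygous replicate 4 (1369) and heterozygous replicate 1 (1365), and its log2 change was 0.17 (SE 0.26).

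Of 16 plasma cell genes 5 were detected, most of them also genes of other liver cells. The secretory transcription factor gene Xbp1 had a log2 change of 0.17, the syndecan gene Sdc1 0.25, the kinase gene Pim2 0.02, the elongation factor gene Ell2 0.01 and the disulfide isomerase gene Txndc5 -0.16. None passed at an adjusted p under 0.05 with limma over all detected probes, where 0% of probes were called. Across the 10 livers Pearson r with IGKC was -0.92 for Sdc1, -0.23 for Xbp1, 0.29 for Pim2, 0.17 for Ell2 and 0.29 for Txndc5. These values are given as a description and were not tested. In the list of antibody receptors and transport, Pigr, Fcgr2b and Fcgr3 were detected, and of the class switch list 6 of 10 genes, among them Xrcc6 at 0.22, Ung at -0.20 and Xrcc4 at 0.16. These lists had medians of 0.02 (plasma cells), 0.14 (receptors and transport) and -0.01 (class switch) against -0.01 over all detected probes, and 0 members passed.

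Markers of other cells moved with some of these probes between livers. The summed intensity of 4 detected Kupffer cell genes of 11 listed (Csf1r, C1qa, C1qb and Cd68) was 1223 to 2452 in heterozygous and 965.5 to 2667 in wildtype liver. It was highest in wildtype replicate 2 and heterozygous replicate 4, the livers highest on IGHM and Ighm, as were C1qa and C1qb. Csf1r was highest in heterozygous replicate 1 (303), with 232 in heterozygous replicate 4 and 172 in wildtype replicate 2. Cd68 was highest in wildtype replicate 2 (94.2), followed by heterozygous replicate 1 (65.8) and heterozygous replicate 4 (50.7). The sum of 2 detected red blood cell genes of 9 listed was 7172 to 12740.0 in heterozygous and 7893 to 31945 in wildtype liver. It was highest in wildtype replicate 5 (31945) and wildtype replicate 3 (14652), the livers highest on IGKC and IGHG2C. Nearly all of this sum came from 1 gene, Hba-a1. The other gene, Hbb-b1, was also highest in wildtype replicate 5 (412), but heterozygous replicate 1 (218) came next, before wildtype replicate 3 (208.5).

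For T cells 1 of 12 genes was detected, Cd3e, at 29.7 to 67.2 in heterozygous and 1.2 to 65.4 in wildtype liver. The sum of the neutrophil genes S100a9 and Csf3r, 2 of 8, was 57.6 to 120 and 51.9 to 117, and that of the general leukocyte genes Cd52 and Cd53, 2 of 10, was 79.6 to 234 and 69.5 to 110.2. Of 8 NK cell genes 0 had a named probe, so these cells could not be read, and of 8 dendritic cell genes 1 had a probe, Ccr9, which was not detected, and of 10 pancreas and gut genes only Cela2a. The part of these cells in the antibody signal was not tested. In whole liver RNA, fewer cells of a type and less RNA per cell cannot be told apart.

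The covariation of antibody classes asked whether livers high in 1 chain were high in the others. Light chain signal followed IgG2c, its relation to IgM passed only for Ighm by rank, and no relation of IgA passed. Over 10 pairs of probes, with p adjusted by Benjamini-Hochberg, IGKC and IGHG2C correlated at r = 0.917 (permutation adjusted p = 0.00085, rho = 0.806 with adjusted p = 0.0353). IGKC correlated with Ighm at r = 0.742 (permutation adjusted p = 0.0564, rho = 0.770 with 0.0421) and with IGHM at r = 0.628 (permutation adjusted p = 0.134, rho = 0.709 with 0.0675). IGHG2C correlated with IGHM at r = 0.399 and with Ighm at r = 0.538 (permutation adjusted p 0.363 and 0.209). With IGHA the r was -0.07 for IGKC, -0.02 for IGHG2C, -0.43 for IGHM and -0.36 for Ighm, with permutation adjusted p of 0.360 to 0.967.

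The gap in IGKC between 5 lower and 5 higher livers limits its correlations, and with 5 livers in each set no r was computed within them. Among the 5 higher livers wildtype replicates 5, 3 and 4 came first, in that order, on both IGKC and IGHG2C. Wildtype replicate 2 and heterozygous replicate 4 followed, and on IGKC their order differed between the intensities (1188 and 1163) and the normalized log2 values (10.29 and 10.35). Among the 5 lower livers heterozygous replicate 1, the highest of these on IGKC, was the lowest on IGHG2C, where it was not detected. Without wildtype replicates 5 and 3, the livers farthest from the IGKC median, r of IGKC and IGHG2C was 0.848 (n = 8, exact permutation adjusted p = 0.0395), and without the arrays that stood apart it was 0.923 (n = 8, exact permutation adjusted p = 0.00223). For IGKC with IGHM and Ighm, r was 0.830 and 0.827 without the same 2 farthest livers (n = 8, exact permutation adjusted p = 0.0395 for both). Without the arrays that stood apart these were 0.556 and 0.716 (n = 8, exact permutation adjusted p 0.336 and 0.175).

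The relation of kappa to IgG2c and to IgM changed in opposite ways once the title number was taken out. With the mean of each title number subtracted, r of IGKC with IGHG2C was 0.692 (exact permutation within title numbers, adjusted p = 0.205), and with IGHM and Ighm it was 0.849 and 0.926 (exact permutation within title numbers, adjusted p = 0.0116 for both). With the mean of each genotype subtracted the 3 values were 0.880, 0.709 and 0.775 (exact permutation within groups, adjusted p 0.0384, 0.0411 and 0.0384). With genotype subtracted IGHA ran against the others, with r from -0.83 with IGHG2C to -0.66 with IGHM. Of these 4 relations of IGHA 3 passed (exact permutation within groups, adjusted p = 0.0411), and that with IGKC did not (r = -0.75, exact permutation adjusted p = 0.0663). By Spearman's rho none of these 4 passed (exact permutation adjusted p 0.0524 to 0.279). The log2 range of IGHA was 0.13 in the heterozygotes and 0.37 in wildtype, where replicate 1, an array that stood apart, was highest. Without the arrays that stood apart, and with no mean subtracted, r of IGHA was 0.297 with IGKC and 0.189 with IGHG2C. There it was -0.21 with IGHM and -0.14 with Ighm, and none passed. These arrays were not left out with group means subtracted. With title number means subtracted the r of IGHA with the other 4 was -0.50 to -0.40, and none passed (exact permutation within title numbers, adjusted p 0.214 to 0.329). Whether 2 of these correlations differ from each other was not tested.

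**Figure D4:**
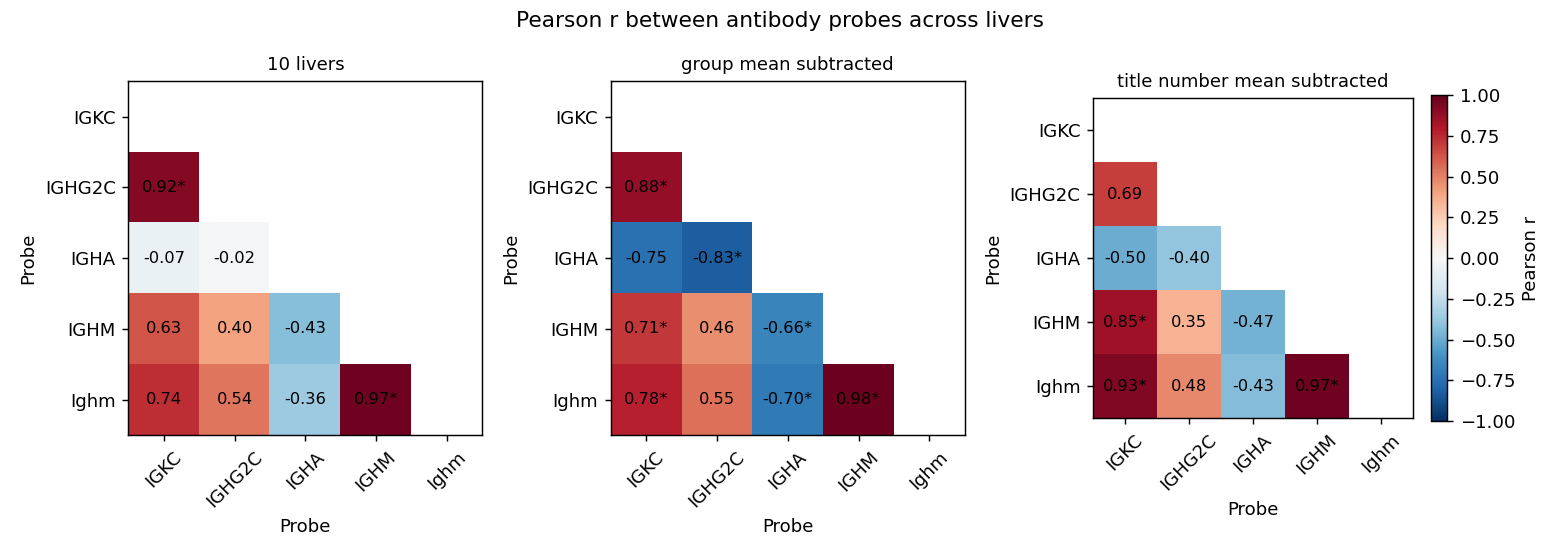
Pearson r between each pair of the 5 probes across 10 livers, as measured (left), with group means subtracted (middle) and with title number means subtracted (right), where colour and number give r and an asterisk marks a permutation adjusted p under 0.05 over 10 pairs. The IGHM and Ighm pair is at 0.97 or 0.98 in each panel, IGKC with IGHG2C falls from 0.92 to 0.69 on the right, and IGKC with Ighm rises from 0.74 to 0.93.

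The title number itself went with the kappa and gamma signal. IGKC lay at 483 to 667 in the 4 livers of title number 1, at 557 to 1188 in the 3 of number 2 and at 1269 to 2399.8 in the 3 of number 7. Numbers 1 and 2 overlapped on IGKC. IGHG2C lay at 8.1 to 30.5, 33.6 to 92.2 and 102 to 410 in the same order, with no overlap between the numbers. Numbers 1 and 2 nearly met there, at normalized log2 values of 7.029 (heterozygous replicate 2) and 7.030 (heterozygous replicate 5). In number 1, IGHG2C was not detected in heterozygous replicates 1 and 3 or wildtype replicate 1. The share of all probes that separate in this way was not computed. IGHM lay at 55.6 to 182, 88.9 to 426 and 141 to 204, and IGHA at 60.4 to 142, 59.7 to 85.4 and 71.7 to 102, both with overlap. The 3 livers of number 7 are all wildtype, so for them title number and genotype cannot be told apart.

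Among the other 10220 detected probes, those most like each antibody probe over the 10 livers were ranked by Pearson r, as a description. For IGKC the named probes with the highest r were Igkc (0.995), IGKV4-51 (0.928) and Ccdc28b, a gene of cilia (0.925). For IGHG2C they were Trim56, a ubiquitin ligase of antiviral sensing (0.925), Igkc (0.924) and Tnfsf13 (0.906). Tnfsf13 codes for APRIL, a cytokine that keeps plasma cells alive, and averaged 341 ± 45.2 (SD, n = 5) for the heterozygotes against 422 ± 69.4 (SD, n = 5) for wildtype, with a log2 change of -0.25 (SE 0.12).

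For IGHM the most like named probes were Oas1a, an interferon-induced antiviral enzyme (0.941), Ckb, brain creatine kinase (0.926), and Cd72, a B cell surface receptor (0.908). For Ighm they were Ckb (0.911), Prmt1, an arginine methyltransferase (0.888), and Oas1a (0.878), so that 2 of 3 were shared between the 2 Ighm probes. For IGHA they were Gyk itself (0.881), the glutathione transferase probe Gstp2 (0.846) and Zfp212 (0.837). Gyk and IGHA both averaged lower in the heterozygotes. Both were highest in wildtype replicate 1 (914 and 142), an array that stood apart. Whether they go together apart from this was not tested. The number of probes with r above 0.9 was 19 for IGKC, 15 for IGHG2C, 8 for IGHM, 3 for Ighm and 0 for IGHA.

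The comparison of genotypes asked whether the livers of Gyk heterozygous mice held a different antibody signal, and none of the 5 probes was called. IGKC averaged 710 ± 257 (SD, n = 5) for the heterozygotes against 1399 ± 701 (SD, n = 5) for wildtype. Its log2 change, heterozygous minus wildtype, was -0.77 (SE 0.35), and the 95% interval ran from -1.54 to 0.01. IGHG2C averaged 28.6 ± 18.2 (SD, n = 5) against 157 ± 148 (SD, n = 5), with a log2 change of -0.84 (SE 0.31), whose interval ran from -1.53 to -0.16. The constant of 95.2 added before log2 pulls the changes of dim probes such as IGHG2C and IGHA toward 0.

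IGHA averaged 73.9 ± 14.7 (SD, n = 5) against 100.0 ± 26.3 (SD, n = 5), with a log2 change of -0.19 (SE 0.08). IGHM averaged 174 ± 149 (SD, n = 5) against 172 ± 83.2 (SD, n = 5), with a log2 change of -0.07 (SE 0.33), interval -0.79 to 0.65. Ighm averaged 559.5 ± 299 (SD, n = 5) against 637 ± 228 (SD, n = 5), with a log2 change of -0.19 (SE 0.30), interval -0.84 to 0.46. For IgM the means of the genotypes thus lay closer than the livers within either genotype. The log2 change was -0.80 (SE 0.34) for the other Igkc probe, -0.63 (SE 0.34) for Ighg3 and -0.37 (SE 0.24) for Iglv1.

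With limma over 10225 probes 0 of the 5 had an adjusted p under 0.05, as had 0% of all tested probes, and their adjusted p ran from 0.349 (IGHG2C) to 0.958 (IGHM). An unadjusted p under 0.05 was reached by IGHG2C and IGHA, both lower in heterozygous liver, and by 1221 tested probes, or 11.9%, of which the lower ones made up 4.68% of all tested. The groups overlapped for each of the 5, while they did not overlap for 1.77% of tested probes, 0.802% with the heterozygotes lower. The log2 change was below 0 for all 5 and for 53.5% of tested probes, and below -0.5 for IGKC and IGHG2C and 0.43% of tested probes, which is read as nothing more since these values were known when the probes were chosen. Of the 24 detected variable segment probes 15 were lower in heterozygous liver, with changes from -0.15 to 0.15, and 0 were called, 0 of them even at an unadjusted p under 0.05.

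Of the livers left out 1 at a time, wildtype replicates 1 and 5 moved the kappa and gamma differences most. Without wildtype replicate 1, the dimmest liver on IGKC and 1 of the arrays that stood apart, the log2 change was -1.09 for IGKC and -1.08 for IGHG2C, and both passed (limma adjusted p = 0.0405 and 0.0480). In that fit 435 probes were called in all. Without both arrays that stood apart the changes were -1.07 and -1.0 and did not pass (limma adjusted p = 0.0679 and 0.0816). Without wildtype replicate 5, the brightest liver, they were -0.54 and -0.55.

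Within title numbers 1 and 2 the difference changed sign for IGKC, IGHM and Ighm and was below 0 in both for IGHA. For IGHG2C the difference was below 0 in number 2 and near 0 in number 1. There the probe was not detected in heterozygous replicates 1 and 3 or in wildtype replicate 1, so its sign cannot be read. The mean log2 value of IGKC was 0.37 higher in the 3 heterozygous livers than in the 1 wildtype liver of number 1, and -0.46 against the 1 wildtype liver in the 2 of number 2. For IGHG2C these differences were -0.04 and -0.42, for IGHM 0.43 and -0.33, for Ighm 0.33 and -0.41, and for IGHA -0.35 and -0.13. In a fit with title number as block the log2 change was -0.02 for IGKC, -0.22 for IGHG2C, 0.07 for IGHM, -0.02 for Ighm and -0.25 for IGHA. The block fit draws on wildtype replicates 1 and 2 alone, and 1 of them is an array that stood apart.

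**Figure D5:**
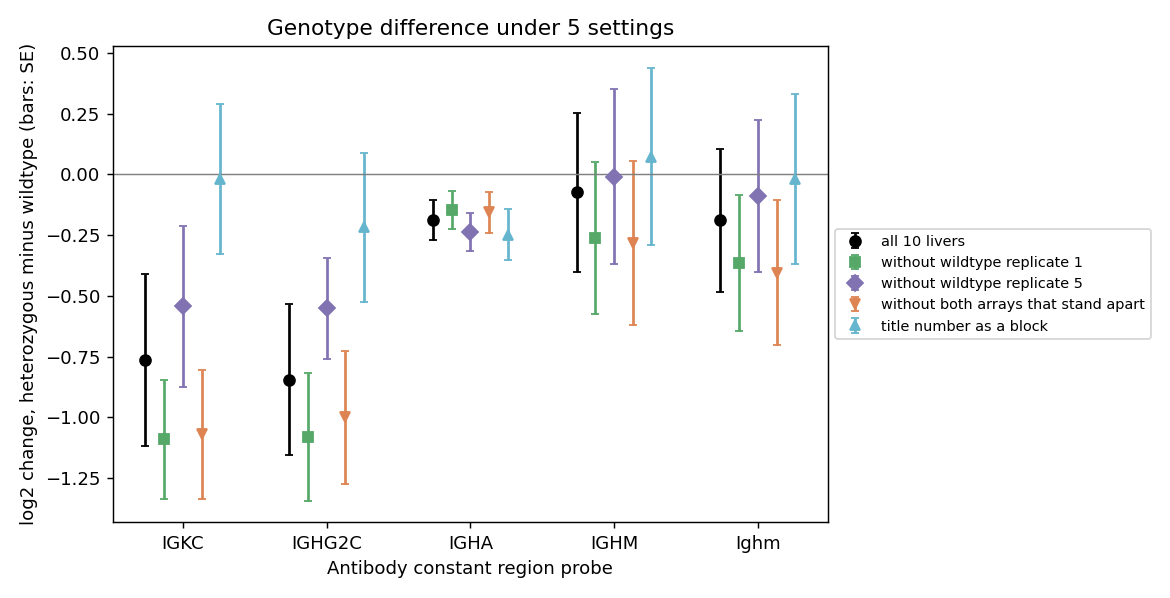
Log2 change, heterozygous minus wildtype, of each probe (bars, SE from limma) with all 10 livers, without wildtype replicate 1, without wildtype replicate 5, without both arrays that stood apart, and with title number as block. IGKC moves from -0.77 to -1.09, -0.54, -1.07 and -0.02, while IGHA stays between -0.25 and -0.15 in these 5 settings.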

How the data were processed

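Liver RNA of 5 Gyk heterozygous and 5 wildtype mice was amplified, labelled with biotin and read on 1 Illumina bead array per mouse, per the labels. The authors deposited linear intensity values made with BeadStudio 1.5.1.3, per the submitters' processing notes. Of each array's values 31.1% to 33.1% were negative, which shows a subtracted background, and any normalization between arrays is not given in the sources used here. A further deposited table holds 80 columns named by array position that no label ties to a sample. They were not used, and neither was a block for the slide.

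A constant of 95.2 brought the lowest value to 16 before log2 and quantile normalization (limma 3.58.1, R 4.3.3). A probe was detected above 1.64 times the root mean square of its array's values below 0, and 10225 probes detected on at least 5 arrays were tested with limma's two-sided moderated test, adjusted by Benjamini-Hochberg at a threshold of 0.05. Median array intensity was 14 to 24, and precision is limited by how few arrays there are. The labels do not say whether the animals shared litters or cages, so p-values measure the spread between these samples. Correlations used two-sided permutation tests (100000 resamples at 10 livers, exact below 10 and within strata) in Python 3.11.15. Both procedures were tested on simulated data.

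Probes are named as in their identifiers, or by matching the number inside an identifier to RefSeq genes of mouse assembly GRCm38.p6, an inference: 93.3% of 9523 such numbers matched, against 42.9% when shifted by 7. No coordinates or sequences of these segments are printed. Named genes were the antibody probes, detected B and plasma cell genes, up to 3 of each other list, and the 3 named probes most like each. The members, lists and rules were chosen with earlier results of these data known. Cd52, Cd53, Cd3e, Ebf1 and the 4 Kupffer genes, with the other genes of small lists, are named to say what a sum holds. Other settings were normexp background correction, a lowest value of 50, cyclic loess, median scaling, no normalization, no filter or a strict one, array weights, title number blocks and each replicate left out. The title number subtracted before correlation and the other Igkc probe were chosen after seeing the data.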

Additional observations from a re-analysis of the deposited data

Results flagged for a closer look

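The IGKC log2 value of Gyk heterozygous replicate 4 was 10.35, far from the other 4 heterozygous livers. Its gap to the nearest of them was 0.768 of the group's range, above the 95% critical value of 0.71 for 5 samples. Of the 10 groups of values so examined (5 probes in 2 groups) this was the only one past that value, and chance alone puts about 1 in 20 there. The same liver was also the highest of all 10 on IGHM and Ighm. Its Igkc probe read 1935.5, above the other heterozygous livers on that probe too. Without this liver the log2 change of IGKC was -0.95 and that of Ighm -0.43.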

How the results depend on the processing

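No genotype difference of the 5 probes passed in the main setting, and 3 of the alternatives brought calls: 435 of all probes without wildtype replicate 1, 410 with array weights and 206 without both arrays that stood apart, against 0 in the others. IGHG2C passed with array weights at -1.1 (limma adjusted p = 0.0449), while IGKC there had -1.08 (limma adjusted p = 0.0547). Leaving out 1 liver at a time gave -1.09 to -0.544 for IGKC, -1.08 to -0.551 for IGHG2C, -0.238 to -0.146 for IGHA, -0.352 to 0.0885 for IGHM and -0.43 to -0.0685 for Ighm, and 0 to 435 probes called. IGHM changed sign with title number as block (0.0733, also within numbers 1 and 2 alone) and without heterozygous replicate 3 (0.0885), heterozygous replicate 5 (0.0207) or wildtype replicate 2 (0.0829). In title numbers 1 and 2 without the arrays that stood apart, added after seeing the data, the changes were -0.666 for IGKC, -0.54 for IGHG2C, -0.132 for IGHA, -0.721 for IGHM and -0.718 for Ighm. That setting compared heterozygous replicates 2 to 5 with wildtype replicate 2 alone, the highest wildtype liver on IGHM and Ighm. With 1 wildtype liver these changes cannot be read as a difference of genotypes. The filter on all 10 arrays removed IGHG2C. Over 19 alternatives the r of the Ighm probes stayed between 0.949 and 0.985, and leaving out 1 liver at a time gave 0.963 to 0.985. Pairs of probes that passed numbered 2, but 7 with group means subtracted, 4 without the farthest livers, and 3 with title number means subtracted, without heterozygous replicate 4 or without wildtype replicate 3. The r of IGHG2C with IGHA turned to 0.189 without both arrays that stood apart and 0.0935 without the farthest livers, and ran from -0.162 to 0.332 with 1 liver left out. The r of IGKC with IGHA turned to 0.297 without both such arrays and ran from -0.286 to 0.306. The causes were not tested. No paired analysis was possible because the replicate numbers follow accession order and pair no samples. The slide as a block was not run. Weak signal over background limits IGHG2C, and 5 mice a group limit every difference.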
